A study of Mus musculus with 4 samples.

Results

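The 36 members described here are transcripts of aminoacyl-tRNA synthetases, taken by symbol from the gene lists of the deposited matrices. All 36 symbols were found among 21594 gene symbols. Of these, 20 encode enzymes of the cytosol and 16, whose symbols end in ars2, encode enzymes of the mitochondrion. The samples are droplet single-cell RNA libraries of dissociated pancreatic islets from 2-month-old mice. There were 2 libraries of mice with floxed Atf4 alleles and the Ins1Cre driver (Atf4F/F; Ins1Cre, called mutants here) and 2 libraries of mice with the floxed alleles alone (Atf4F/F, called controls). Ins1Cre is expressed from the insulin 1 locus, so deletion is directed at beta cells, and the controls carry no driver. Each library was a pool of islets, from 2 males and 2 females by the design text and from 3 to 4 mice by the protocol. Both tdT+ and tdT- cells went into each library, and 10% human K562 cells were added as a check on doublets.

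A synthetase joins one amino acid to its matching tRNA, the step that gives the ribosome its substrates. Nearly all amino acids have a cytosolic enzyme and a separate nuclear-encoded mitochondrial enzyme, while Gars and Kars, counted as cytosolic here, encode proteins for both compartments. Qars has no mitochondrial counterpart, since mitochondrial glutamine-tRNA is made by Ears2 and an amidotransferase. ATF4 is a transcription factor made in larger amounts when eIF2-alpha is phosphorylated, as in amino acid shortage or endoplasmic reticulum stress, and several cytosolic synthetase genes are textbook targets of it. Beta cells secrete insulin at high rate and are known for a heavy load on protein synthesis.

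Composite C/EBP-ATF elements carry the letters TGATGNAAN, and both strands were searched in windows of 300 bases, from 250 before to 50 after each RefSeq transcript start (GRCm38.p6). Windows were available for 13 cytosolic and 14 mitochondrial genes. Cars, Hars, Lars, Nars, Rars, Vars, Wars, Hars2 and Pars2 had no window. The composite letters were in the windows of 5 of the 13 cytosolic genes, Aars, Gars, Iars, Tars and Yars, or 38.5%. They were in 0 of the 14 mitochondrial genes, and in 4.50% of all 27025 genes with a window. The shorter core TGATG, which every composite match contains, was in 8 of 13 cytosolic genes, 4 of 14 mitochondrial genes and 42.9% of all genes. A match is a description of letters and not of a bound site. One match in each of these cytosolic genes is shown first, on the strand of the gene, with the composite in capitals. They are followed by the core matches, in capitals, of the mitochondrial genes Nars2, Sars2 and Cars2, which lack the second part of the element. These are not the counterparts of the cytosolic genes shown: Nars and Cars had no window, and Sars had no composite match. Rars2, which also held the core, is not shown. Positions count from the transcript start, with negative numbers upstream.
Aars, from 9, chr8:111033840-111033868, plus strand: agcgggtcacTTTTCATCAgagcgctctg
Gars, from -31, chr6:55037960-55037988, plus strand: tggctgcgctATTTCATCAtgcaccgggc
Tars, from -16, chr15:11399656-11399684, minus strand: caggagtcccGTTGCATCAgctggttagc
Iars, from 7, chr13:49682126-49682154, plus strand: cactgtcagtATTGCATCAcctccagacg
Yars, from 4, chr4:129189896-129189924, plus strand: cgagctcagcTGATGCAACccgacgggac
Nars2, from -21, chr7:96951496-96951520, plus strand: ccacccagcgTGATGacggaagagc
Sars2, from 19, chr7:28741976-28742000, plus strand: ggctcgtccaTGATGagtgacttct
Cars2, from -164, chr8:11550921-11550945, minus strand: gcagacacaaTGATGtacaccgagc

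Cells were classed by the share of their unique molecular identifiers (UMIs, 1 per captured molecule) that came from hormone transcripts. Of 11114 barcodes, 6995 were kept, and 4053 were classed as beta, 682 as alpha, 162 as delta and 122 as PP cells, with 1976 not classed. Insulin made up a median of 41.5% of UMIs in beta cells, glucagon 26.6% in alpha, somatostatin 20.9% in delta and pancreatic polypeptide 14.5% in PP cells. Among the endocrine classes, each summed list of markers outside the hormones was highest in its own class. The 7 alpha markers summed to 19690 CPM (counts scaled to a common library size) in alpha and 1083 CPM in beta cells. Ttr alone was at 17960 CPM in alpha cells. Single markers did not all follow: Gpr158, of the PP list, was at 306 CPM in beta and 25.1 CPM in PP cells. Slc30a8, of the beta list, was at 1051 CPM in alpha and 1020 CPM in beta cells. Lepr, of the delta list, was at 0 in delta cells. The PP list, mostly Pyy, also summed to 29970 CPM in delta cells, against 109600 CPM in PP cells. Among the 8 beta markers, Mafa was at or near 0 in every library. Total UMIs per library ran from 13706563 to 17655893. Beta cells were deeper in mutants, with medians of 8677 and 8681 UMIs a cell, than in controls, with 6222 and 7211. Of 4940 distinct barcodes in the classed cells, 77 occurred in more than 1 library.

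The deletion was first read from Atf4 itself. In the sums over beta cells, Atf4 was at 3.07 CPM in mutant 1 and 120 CPM in mutant 2, against 363 and 373 CPM in controls 1 and 2. Mutant 1 was near 0, while mutant 2 stood between mutant 1 and the controls. The change was −2.58 ± 1.03 (log2 mutant over control, SE) and did not pass in edgeR's quasi-likelihood test (adjusted p = 0.317, n = 2 libraries a group). In alpha cells Atf4 was at 235 and 267 CPM in mutants and at 408 and 323 CPM in controls (−0.54 ± 0.16, adjusted p = 0.226). Because mutant 2 kept Atf4 transcripts, results are also given for subsets of its cells further on.

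In beta cells, the 5 cytosolic transcripts furthest below control in the mutants were Aars, Sars, Cars, Yars and Gars, the enzymes for alanine, serine, cysteine, tyrosine and glycine, at −1.06 to −0.73 on the log2 scale. None of the 36 members passed at an adjusted p of 0.05 in edgeR's quasi-likelihood test over 13511 genes, in which 0.111% of all genes were called lower and 0.333% higher. DESeq2 called 4 members lower (Aars, Gars, Sars and Yars), and limma-voom called 0. At an unadjusted p under 0.05, 8 of the 20 cytosolic members were lower, beside 6.57% of all genes, and 1 was higher, beside 7.48%. In 11 cytosolic members both mutant libraries lay below both controls (22.8% of all genes), and in 2 both lay above (23.3%). The log2 change was negative in 15 of 20 (48.8% of all genes), with a median of −0.22 against 0.01 over all genes tested. Of the 16 mitochondrial members, 1 was lower and 1 higher at an unadjusted p under 0.05, and 8 were negative, with a median of −0.05. Both mutants lay below both controls in 5 of the 16 and above them in 2, beside the same 22.8% and 23.3% of all genes. The number of calls changed with the libraries: 4 members passed without mutant 2, beside 173 of 14344 genes, and 0 without mutant 1, beside 42 of 14116. Fits without control 1 or without control 2 took 1 common spread for all genes, and the members called in them were not all lower. Hars, for histidine, was higher in mutants, with log2 changes of 0.189 to 0.702 when 1 library was left out.

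**Figure D1:**
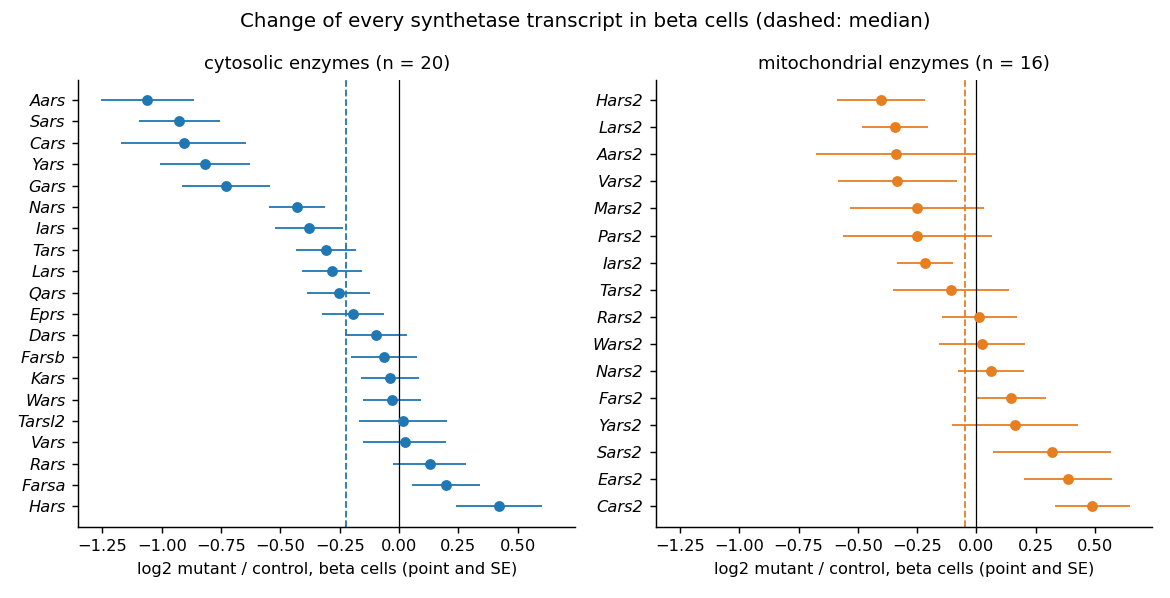
Log2 change of each member in beta cells, mutant over control (x axis), with SE as bars, for the 20 cytosolic (left) and 16 mitochondrial (right) enzymes; 2 libraries a group. The dashed lines mark the medians of −0.22 and −0.05, and Aars, at −1.06, lies furthest from 0.

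Aars lies on the plus strand of chromosome 8 (111033144 to 111057664, GRCm38). It was at 36.8 and 57.8 CPM in mutants 1 and 2 and at 95.7 and 101.5 CPM in controls 1 and 2 (47.3 ± 14.9 against 98.6 ± 4.11, mean ± SD, n = 2 each). Mutant 1 was the lower of the mutants, as it was for Atf4, and the groups did not overlap. Its change was −1.06 ± 0.20 (log2, SE; adjusted p = 0.0705, edgeR).

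Sars, on the minus strand of chromosome 3 (108424865 to 108445209), had no composite match in its window. It was at 35.4 and 50.5 CPM in mutants and at 77.1 and 85.9 CPM in controls (−0.93 ± 0.17, adjusted p = 0.0705, edgeR). Yars, on the plus strand of chromosome 4 (129189760 to 129219607), was at 25.1 and 37.9 CPM in mutants and 51.4 and 59.7 CPM in controls (−0.82 ± 0.19, adjusted p = 0.123, edgeR). Both genes kept the order seen in Aars, with mutant 1 lowest and mutant 2 between it and the controls. Gars, on the plus strand of chromosome 6 (55038007 to 55079500), was at 95.2 and 144 CPM in mutants and 194 and 202 CPM in controls (−0.73 ± 0.19, adjusted p = 0.15, edgeR). Cars, on the minus strand of chromosome 7 (143557230 to 143600090), was the least counted of these, at 6.44 and 11 CPM against 14.0 and 18.7 CPM (−0.91 ± 0.27, adjusted p = 0.192, edgeR). In these genes too neither mutant reached a control. Other annotated genes overlap Aars (among them Exosc6), Yars (C77080), Sars and Cars, and reads shared with them cannot be told apart here.

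The next 3 lower members changed less. Nars, for asparagine, was at 67.5 and 69.0 CPM in mutants and 87.2 and 96.7 CPM in controls (−0.43 ± 0.12, adjusted p = 0.181, edgeR), and here the mutants were alike. Iars, for isoleucine, was at 24.4 and 28.1 CPM against 31.9 and 36.4 CPM (−0.38 ± 0.14). Tars, for threonine, was at 36.3 and 41.9 CPM against 47.6 and 49.1 CPM (−0.31 ± 0.13). Groups did not overlap in any of these 3, and the adjusted p was 0.288 for Iars and 0.326 for Tars (edgeR). Hars, for histidine, went the other way, at 30.9 and 29.5 CPM in mutants and 18.5 and 26.4 CPM in controls (0.42 ± 0.18, unadjusted p = 0.0467, adjusted p = 0.347, edgeR). Hars and Hars2 overlap head to head in the annotation, and whether the counting used strand is not given in the sources used here. The other 11 cytosolic members had changes between −0.28 (Lars) and 0.20 (Farsa), all with an unadjusted p above 0.05. Among them Wars, for tryptophan, was at 60.8 and 55.4 CPM in mutants and 56.0 and 62.6 CPM in controls, which overlap.

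Of the 6 cytosolic members that were lower at an unadjusted p under 0.05 and had a promoter window (Aars, Gars, Iars, Sars, Tars and Yars), 5 held the composite letters. Of the other 7 cytosolic genes with a window, 0 held them. This count was made with the changes in view, so it describes the 13 genes and tests nothing.

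Among the mitochondrial counterparts, Lars2 had the same order of libraries as Aars, and those of alanine, serine, tyrosine, cysteine and asparagine did not. Aars2 was at 4.09 and 2.39 CPM in mutants and 4.76 and 3.46 CPM in controls (−0.34 ± 0.34), with the groups overlapping. Sars2 was at 10.0 and 7.57 CPM against 5.88 and 8.19 CPM (0.32 ± 0.25). Yars2 was at 6.95 and 5.29 CPM against 4.58 and 6.33 CPM (0.16 ± 0.26). These 3 are low in counts, and their SE is correspondingly wide. Nars2 was at 31.2 and 32.5 CPM against 33.3 and 27.7 CPM (0.06 ± 0.14). Cars2 was higher in mutants, at 18.8 and 20.5 CPM, than in controls, at 12.9 and 15.1 CPM (0.49 ± 0.16, unadjusted p = 0.0141, adjusted p = 0.228, edgeR), opposite in sign to Cars. Lars2 was lower, at 24.9 and 28.1 CPM against 31.6 and 35.8 CPM (−0.35 ± 0.14, unadjusted p = 0.0368, adjusted p = 0.322, edgeR), and its cytosolic counterpart Lars was at 42.7 and 47.1 CPM against 51.1 and 58.1 CPM (−0.28 ± 0.13). For leucine, then, both enzymes pointed the same way, with no overlap between groups in either. The same held for isoleucine: Iars2 was at 43.9 and 40.4 CPM against 48.1 and 49.8 CPM, lower without overlap, as Iars was. Hars2 was at 9.71 and 8.61 CPM against 11.3 and 12.9 CPM, also lower without overlap, while Hars was higher. Tars2, at 5.42 and 5.08 CPM against 6.44 and 4.90 CPM, overlapped. The other mitochondrial members ranged from −0.33 (Vars2) to 0.38 (Ears2). Over all 15 pairs of enzymes for the same amino acid, the cytosolic enzyme had the lower log2 change in 9. It had the higher change for Farsa, Hars, Lars, Rars, Tarsl2 and Vars. Fars2 and Tars2 were each paired more than once.

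Summed over the 20 cytosolic enzymes, the level was 831 and 930 CPM in mutants and 1103 and 1189 CPM in controls. The sum over the 16 mitochondrial enzymes was 277 and 299 CPM in mutants and 296 and 285 CPM in controls, and these overlap. Among markers of other cell types counted in the same beta cells, the sum of 7 acinar markers was lower in mutants, at 19.5 and 29.8 CPM, than in controls, at 77.4 and 144 CPM. In alpha cells of the same libraries the acinar sum differed likewise, at 19.8 and 32.1 CPM against 126 and 196 CPM, while the cytosolic synthetase sum was 979 and 1048 CPM in mutants and 1003 and 1053 CPM in controls. Other marker sums in beta cells also separated the groups: 7 alpha markers were at 1468 and 1194 CPM in mutants and 818 and 960 CPM in controls, 4 delta markers at 23.1 and 39.6 CPM against 70.1 and 70.9 CPM, 4 B cell markers at 8.04 and 11.6 CPM against 19.9 and 17.6 CPM, 4 duct markers at 247 and 206 CPM against 182 and 199 CPM, and 4 PP markers at 560 and 667 CPM against 520 and 493 CPM. The sum of 6 macrophage markers, 67.9 and 98.3 CPM against 131 and 129 CPM, was mostly C1qa, at 53.2 and 88.5 CPM against 123 and 123 CPM. C1qb, C1qc and Adgre1 went the other way, with C1qb at 5.07 and 3.98 CPM against 3.03 and 1.91 CPM. The 8 beta markers summed to 57460 and 59250 CPM in mutants and 59400 and 63300 CPM in controls. Endothelial, stellate and proliferation marker sums overlapped. Marker sums are CPM of total UMIs, without the scaling factors used for the synthetase sums. In beta cells these factors were 1.081 and 1.01 in mutants and 0.929 and 0.986 in controls. With them the PP marker sums of the groups would overlap. No marker list had a gene at 0 over the beta cells, and the part of these markers in the beta-cell result was not tested.

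**Figure D2:**
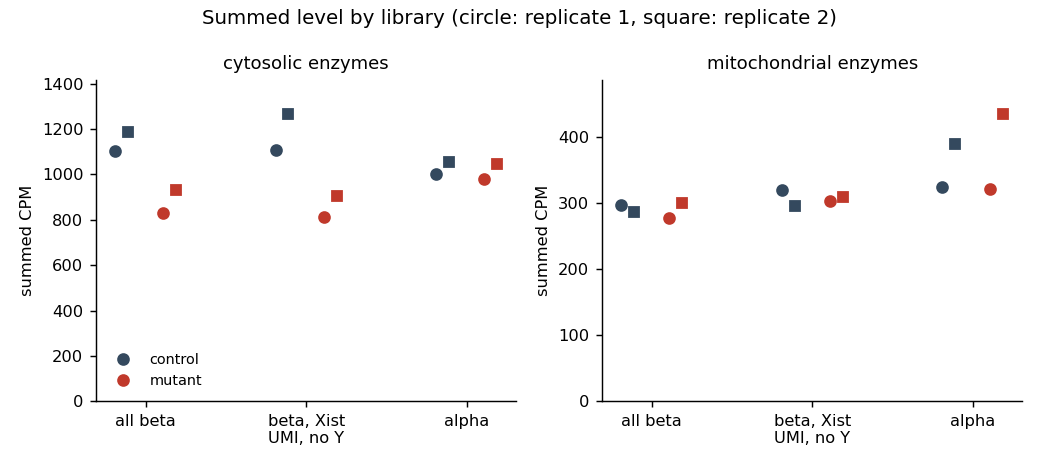
Summed CPM (y axes from 0) of the cytosolic (left) and mitochondrial (right) enzymes in each library, for all beta cells, beta cells with a Xist UMI and no Y-linked UMI, and alpha cells. The cytosolic sum of both mutants, 831 and 930 CPM in all beta cells, lies below both controls. In alpha cells mutant 1, at 979 CPM, is below both controls and mutant 2, at 1048 CPM, between them.

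Since each pool held males and females, beta cells were also split by sex-linked transcripts, a choice made after an earlier account of these files was read. In beta cells with a UMI of Xist and none of Ddx3y, Eif2s3y, Kdm5d or Uty (208 and 155 cells in mutants, 213 and 156 in controls), Atf4 was at 1.41 and 9.53 CPM in mutants and 353 and 447 CPM in controls. Here both mutants were low, and Atf4 passed (−6.30 ± 0.40, adjusted p = 4.3e-05, edgeR). Aars, Sars and Yars fell in these cells, 3 members called lower of 33 tested, where 0.602% of all 10623 genes tested were called lower and 0.546% higher. Aars was at 39.3 and 44.0 CPM in mutants and 85.1 and 110.5 CPM in controls (−1.23 ± 0.17, adjusted p = 0.00876, edgeR). Sars was at 36.9 and 31.8 CPM against 67.4 and 105 CPM (−1.32 ± 0.22, adjusted p = 0.0194, edgeR). Yars was at 27.8 and 23.6 CPM against 62.3 and 55.0 CPM (−1.18 ± 0.18, adjusted p = 0.0133, edgeR). In each of the 3, both mutants lay below both controls and mutant 2 was no longer set apart from mutant 1. Gars stood at 95.2 and 139.7 CPM against 210.1 and 210.0 CPM (−0.85 ± 0.18, adjusted p = 0.053, edgeR).

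In the same cells 9 of 20 cytosolic members were lower at an unadjusted p under 0.05 (7.39% of all genes) and 0 higher (6.71%). Both mutants lay below both controls in 12 (23.3% of all genes) and above them in 0 (22.1%), and 15 changes were negative (49.9%). The cytosolic median was −0.38, and the 13 mitochondrial members that passed the filter on low counts had a median of −0.01 with 0 called. Eprs, the joint enzyme for glutamate and proline, was at 88.9 and 91.6 CPM against 111 and 125 CPM (−0.39 ± 0.14, adjusted p = 0.244, edgeR). Cars2 was again higher in mutants, at 20.4 and 24.0 CPM against 12.6 and 11 CPM (0.90 ± 0.25, adjusted p = 0.14, edgeR).

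In beta cells with a Y-linked UMI and none of Xist (193 and 329 cells in mutants, 305 and 284 in controls), Atf4 was at 3.63 CPM in mutant 1 and at 193 CPM in mutant 2, against 388 and 353 CPM in controls. No member was called there, beside 0.0171% of all 11687 genes called lower and 0.0599% higher, and 6 cytosolic members were lower at an unadjusted p under 0.05 (3.3% of all genes) and 0 higher (5.05%). Aars was at 38.1 and 69.5 CPM against 111 and 98.9 CPM (−0.96 ± 0.26, adjusted p = 0.334, edgeR), with mutant 2 between mutant 1 and the controls. Sars was at 36.6 and 66.9 CPM against 84.1 and 86.5 CPM, in the same order. The median was −0.10 for the cytosolic and −0.15 for the mitochondrial list, so the medians stood in the opposite order to that in all beta cells. The cytosolic sum was still lower in mutants, at 926 and 998.5 CPM, than in controls, at 1150 and 1205 CPM. The mitochondrial sums, 277 and 305 CPM against 300 and 292 CPM, overlapped. Both mutants lay below both controls in 8 of 20 cytosolic members and above them in 1, beside 2303 and 2355 of 11687 genes. For the 16 mitochondrial members these counts were 4 and 2. The difference between the subsets was not tested.

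Mutant 2 also allowed a comparison within 1 library, among beta cells with more than 8000 UMIs. Of these, 233 had no Atf4 UMI and 137 had at least 3. The comparison has no replicates, and the intervals (exact Poisson for levels, exact binomial for ratios, 95%) cover counting error only. Levels in these sums are CPM of the subset's own UMIs. Aars was at 41.8 CPM (35.6 to 48.7) in cells without Atf4 and 84.3 CPM (73.6 to 96.1) in cells with it, a ratio of 0.496 (0.403 to 0.61). The ratio was 0.419 (0.336 to 0.521) for Sars and 0.462 (0.354 to 0.601) for Yars. For Cars it was 0.28 (0.16 to 0.473), for Iars 0.536 (0.399 to 0.717), for Nars 0.662 (0.55 to 0.797) and for Gars 0.777 (0.684 to 0.883). Lars (0.731, 0.59 to 0.908), Eprs (0.732, 0.632 to 0.847) and Tars (0.77, 0.606 to 0.979) were also below 1. These ratios were computed for the members and Atf4 alone, so no share of all genes stands beside them. Lars and Eprs were not among the 8 members lower at an unadjusted p under 0.05 between libraries, a comparison that includes mutant 2 itself. Dars, Kars and Rars had ratios of 1.32 (1.04 to 1.67), 1.31 (1.04 to 1.65) and 1.38 (1.02 to 1.87), above 1.

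The cytosolic sum in mutant 2 was 892 CPM (863 to 922) without Atf4 and 1153 (1113 to 1195) with it, a ratio of 0.774 (0.737 to 0.812), and 0.795 (0.756 to 0.837) without Aars. The mitochondrial sum was 308 against 336, a ratio of 0.916 (0.84 to 1.00). Within that list Wars2 had the lowest ratio, 0.489 (0.338 to 0.703), at 13.9 against 28.3 CPM. The interval of Fars2 (0.799, 0.648 to 0.987) was also below 1, and 0 mitochondrial members had an interval above 1. Wars2 did not differ in this way between libraries, at 15.0 and 18.4 CPM in mutants and 18.4 and 14.5 CPM in controls. The classes of mutant 2 cells differed in other measures too: the median was 15160 UMIs a cell without Atf4 and 18070 with it. By sex-linked transcripts, 98 cells without Atf4 had Xist and no Y-linked UMI and 65 the reverse, against 2 and 115 of the cells with Atf4. In the controls, cells with 1 or 2 Atf4 UMIs had lower cytosolic sums (891 and 996 CPM) than cells with at least 3 (1123 and 1272), and were shallower (medians of 9979 and 11370 against 15950 and 17500 UMIs). The part of depth and sex in the ratios of mutant 2 was not tested. Mutant 1 cells without Atf4 had Aars at 41.6 and Sars at 40.6 CPM, and control cells with at least 3 Atf4 UMIs had Aars at 98.2 and 106 CPM and Sars at 76.7 and 92.4 CPM.

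**Figure D3:**
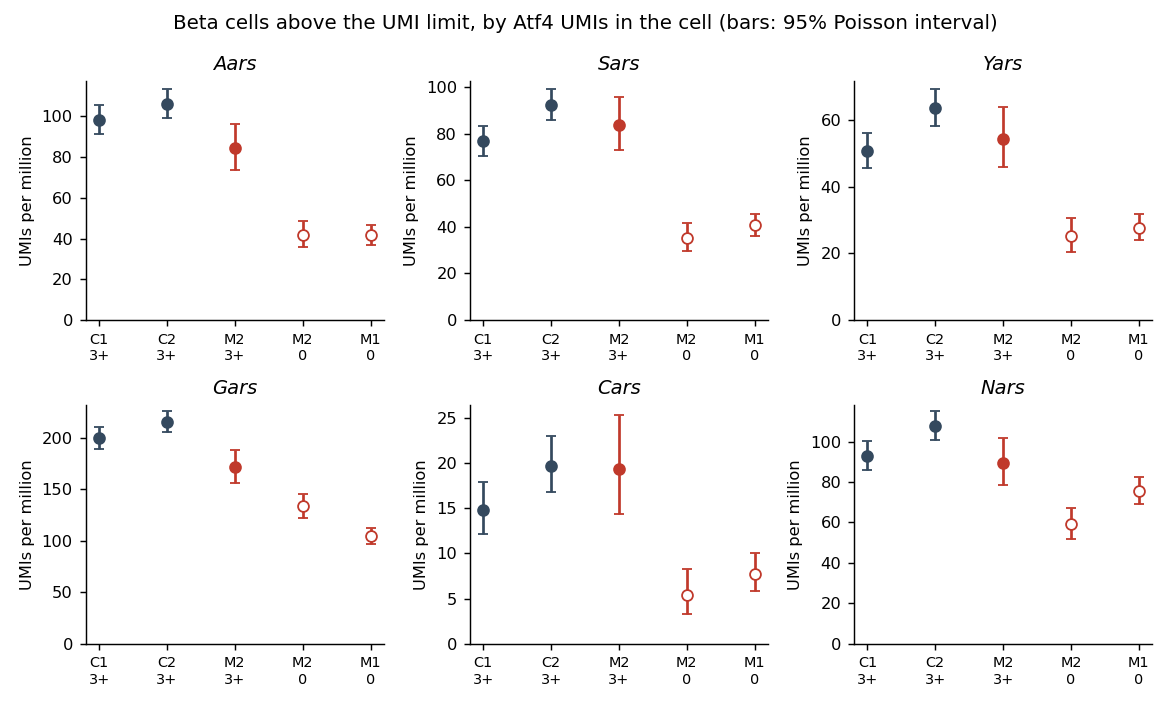
Levels in CPM (y axes from 0, points), with exact 95% Poisson intervals (bars) for 6 cytosolic members in beta cells above 8000 UMIs. C1, C2, M1 and M2 are the controls and mutants, 3+ marks cells with at least 3 Atf4 UMIs (filled) and 0 cells with none (open). For Aars the cells of mutant 2 without Atf4 (41.8) sit at the level of mutant 1 (41.6), and those with Atf4 (84.3) lie nearer to the controls (98.2 and 106).

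Alpha cells of the same libraries were compared next. In the test over 8574 genes, 0.233% were called lower and 0.268% higher, and 0 of 29 members tested were called, by edgeR, DESeq2 or limma-voom. At an unadjusted p under 0.05, 0 cytosolic members were lower (4.22% of all genes) or higher (5.55%). Both mutants lay below both controls in 3 (19.8% of all genes) and above them in 4 (20%), and the median was 0.01 for the 20 cytosolic and −0.02 for the 9 mitochondrial members tested. Aars was at 46.1 and 75.2 CPM in mutants and 41.9 and 78.8 CPM in controls, and the groups overlap. Sars was at 34.3 and 35.8 CPM against 33.5 and 30.7 CPM, and Yars at 43.8 and 48.6 CPM against 37.7 and 36.1 CPM. Gars was at 134 and 179 CPM against 172 and 190 CPM. The 1 member with an unadjusted p under 0.05 was the mitochondrial Fars2, at 68.6 and 137 CPM in mutants and 68.4 and 62.8 CPM in controls (0.67 ± 0.26, adjusted p = 0.384, edgeR). Mutant 2 held the highest value, and Fars2 passed when mutant 1 was left out.

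**Figure D4:**
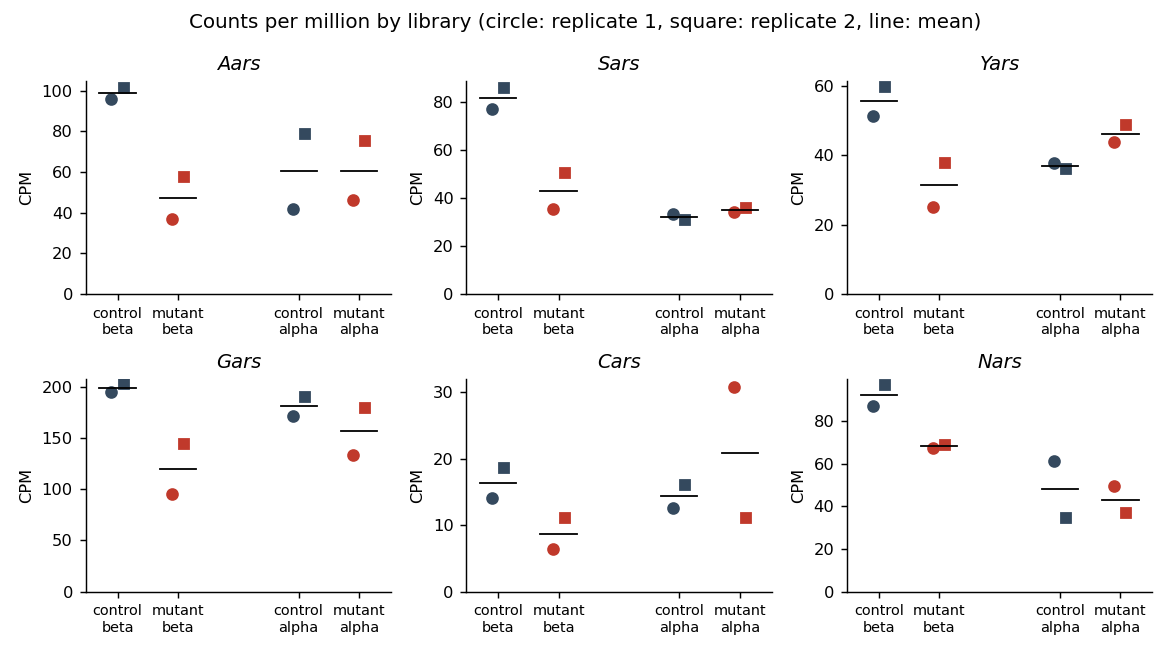
CPM (y axes from 0) of 6 cytosolic members in each library, in beta and alpha cells, with group means as lines and 2 libraries a group. In beta cells both mutants lie below both controls in all 6 panels, and in alpha cells they do so in none.

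The difference between the mutant effects in beta and alpha cells was tested in one model with the library as a block. The spread in this model was taken mostly from all genes together (prior degrees of freedom 147), and little from each gene's own libraries. Aars and Yars passed, 2 members called lower of 36 tested, beside 0.322% of all 13374 genes lower and 0.299% higher. With both classes scaled together, Aars had a mean of 110 CPM in control and 52.3 CPM in mutant beta cells and stood at 53.0 and 53.2 CPM in alpha cells of controls and mutants. The difference of the effects was −1.08 ± 0.25 (log2, SE; adjusted p = 0.00632, edgeR). Yars went from 62.0 to 34.9 CPM in beta cells and from 32.5 to 40.5 CPM in alpha cells (−1.14 ± 0.29, adjusted p = 0.0255, edgeR). Sars did not pass, with a difference of −1.05 ± 0.30 (adjusted p = 0.103, edgeR). In all, 7 cytosolic members had a lower effect in beta cells at an unadjusted p under 0.05 (4.21% of all genes), and the median difference was −0.28 for the cytosolic and 0.04 for the mitochondrial list. DESeq2 and limma-voom called neither, and neither passed without control 1. Aars alone passed without mutant 1 or without control 2, and Yars but not Aars without mutant 2.

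Delta and PP cells were few, and most members had too few counts to test. In delta cells 4 cytosolic and 2 mitochondrial members were tested and 0 called, beside 0% of 3186 genes lower and 0.0314% higher. In PP cells 7 and 2 were tested and 0 called, beside 0% of 3082 genes in either direction. At an unadjusted p under 0.05, 0 members were lower or higher in delta cells (2.92% and 3.08% of all genes) or in PP cells (2.27% and 2.79%). Aars had 12 and 18 UMIs in delta cells of the mutants and 5 and 10 in controls, and 15 and 2 against 25 and 9 in PP cells. The differences of the mutant effect between beta cells and delta or PP cells called 0 members in edgeR, DESeq2 or limma-voom (0.046% of all genes lower and 0.0919% higher for delta, 0.0311% and 0.0389% for PP). At an unadjusted p under 0.05, 3 cytosolic members had a lower effect in beta than in delta cells (2.84% of all genes), and 3 cytosolic and 1 mitochondrial member a lower effect in beta than in PP cells (1.38%). Summed over the cytosolic list, delta cells were at 1196 and 1060 CPM in mutants and 938 and 1119 CPM in controls, and PP cells at 1184 and 1447 CPM against 1169 and 1297 CPM, with overlap in both. The mitochondrial sum in delta cells was lower in mutants, at 332 and 385 CPM, than in controls, at 469 and 486 CPM, with no overlap. It rested on 46 and 81 UMIs in mutants and 64 and 56 in controls, and was not tested. Among single genes tested in delta cells, both mutants lay below both controls in 597 of 3186. In PP cells the mitochondrial sum was 369 and 385 CPM against 327 and 388 CPM.

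Among controls alone, beta cells held more of several cytosolic synthetase transcripts than alpha cells. Of the 20, 8 were higher in beta cells, beside 15.8% of all genes, and 1 lower, beside 13%. Of the 16 mitochondrial members, 1 was higher and 1 lower. Wars was at 62.3 and 70.1 CPM in beta and 12.4 and 17.6 CPM in alpha cells (log2 beta over alpha 2.14 ± 0.25, adjusted p = 2.7e-13, edgeR). Sars was at 85.8 and 96.2 CPM against 29.7 and 26.9 CPM (1.69 ± 0.20, adjusted p = 1.4e-12). Nars was at 97.0 and 108 CPM against 54.4 and 30.4 CPM (1.29 ± 0.18, adjusted p = 1.3e-09). Beta cells exceeded alpha cells in both libraries for each. The p-values come from the same model as the difference of the effects, with its spread shared over genes.

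Aars was at 107 and 114 CPM in beta against 37.1 and 69.0 CPM in alpha cells (1.05 ± 0.17), Tars at 53.0 and 55.0 against 23.5 and 30.4 CPM (1.00 ± 0.22), and Yars at 57.1 and 66.8 against 33.4 and 31.6 CPM (0.93 ± 0.21). Lars was at 56.8 and 65.0 against 38.3 and 41.0 CPM (0.62 ± 0.20) and Gars at 216 and 227 against 152 and 166 CPM (0.48 ± 0.12). Qars, for glutamine, was lower in beta cells, at 34.3 and 35.2 CPM against 48.2 and 51.5 CPM (−0.52 ± 0.20, adjusted p = 0.0405, edgeR). Among mitochondrial members, Nars2 was higher in beta cells, at 37.1 and 31.0 CPM against 12.4 and 28.1 CPM (0.73 ± 0.26, adjusted p = 0.0254), and Wars2 lower, at 20.5 and 16.3 CPM against 37.1 and 31.6 CPM (−0.90 ± 0.25, adjusted p = 0.00251). For tryptophan the 2 enzymes thus stood in opposite order between the cell types. With library totals only as the scaling, the median of all genes moved by −0.36 and the calls were 6 lower and 6 higher in place of 2 and 9. Aars, Nars, Sars, Tars, Wars and Yars stayed higher in beta cells under every alternative. Without control 1, 7 of the 11 calls remained, and without control 2, 8.

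**Figure D5:**
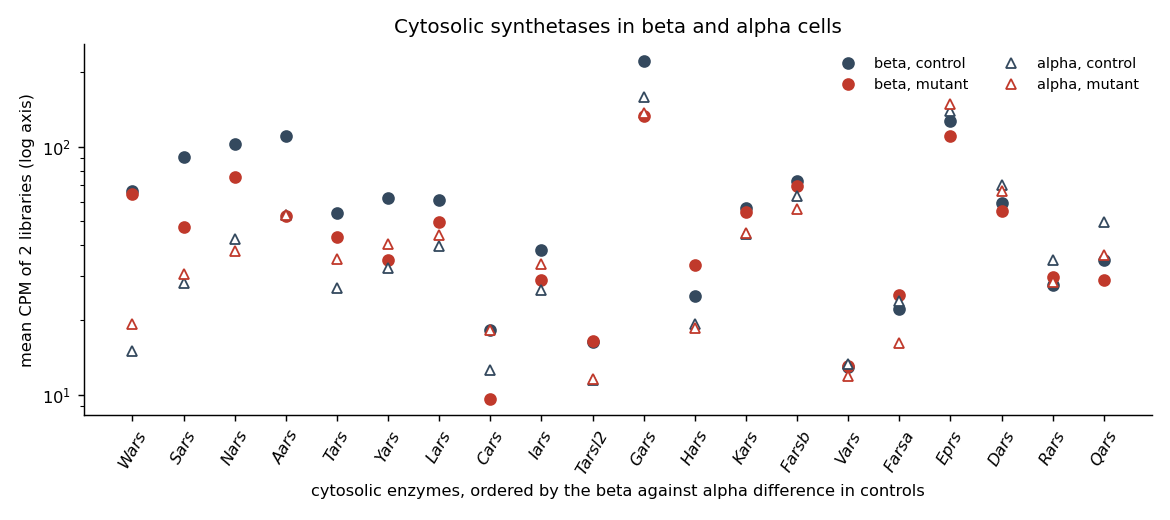
Mean CPM of 2 libraries (log axis) of the 20 cytosolic members in beta (circles) and alpha cells (triangles) of controls (dark) and mutants (red), ordered by the beta against alpha difference in controls. Aars in mutant beta cells (52.3 CPM) coincides with its level in alpha cells (53.0 and 53.2 CPM), while Wars stays at 64.3 CPM in mutant beta cells against 19.3 CPM in mutant alpha cells.

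Against delta cells, 8 cytosolic members were higher in control beta cells (6.23% of all genes) and 0 lower (3.84%): Aars, Cars, Dars, Eprs, Iars, Nars, Sars and Wars. Sars was at 90.7 and 102 CPM in beta and 15.6 and 40.1 CPM in delta cells (1.82 ± 0.40, adjusted p = 0.000142, edgeR). Dars, for aspartate, was at 60.9 and 64.5 against 10.4 and 28.7 CPM, and Eprs at 136 and 132 against 72.9 and 74.5 CPM. Cars had 0 UMIs in the delta cells of either control, so its fitted change is no measure of size. Against PP cells, Gars, Nars and Sars were higher (4.4% of all genes) and 0 lower (2.73%), with Sars at 90.0 and 101 against 33.3 and 8.99 CPM. DESeq2 called none of these. Against delta cells, 3 passed without control 1 and 4 without control 2, and against PP cells 1 and 0. The delta and PP sums rest on 15 to 52 cells a control.

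Other genes of tRNA charging were read from a list of 20 that covers the scaffold proteins of the multi-synthetase complex (Aimp1, Aimp2, Eef1e1), editing and deacylase factors, amidotransferase subunits and elongation factors. Of 18 tested in beta cells, 0 passed (0.111% of all genes lower, 0.333% higher) and 1 was lower at an unadjusted p under 0.05 (6.57% of all genes), with a median of 0.04. In the beta cells with Xist, 1 of 17 tested passed (0.602% of all genes lower), Eef1a1, which carries charged tRNA to the ribosome. It was at 1163 and 1371 CPM in mutants and 1989 and 2078 CPM in controls (−0.68 ± 0.13, adjusted p = 0.0349, edgeR).

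A further list of 32 textbook ATF4 targets outside charging, such as amino acid transporters and serine and asparagine synthesis enzymes, gives the setting. Of 30 tested in all beta cells, 0 passed, 18 were lower at an unadjusted p under 0.05 (6.57% of all genes), and both mutants lay below both controls in 24 (22.8%), with a median of −0.48. In the beta cells with Xist, 9 of 27 tested fell and 0 rose (0.602% and 0.546% of all genes), with a median of −0.91. Asns, asparagine synthetase, was at 29.5 and 39.0 CPM against 81.3 and 117 CPM (−1.54 ± 0.21, adjusted p = 0.00752, edgeR). Mthfd2, of mitochondrial folate metabolism, was at 13.4 and 13.2 CPM against 76.2 and 73.8 CPM (−2.50 ± 0.18, adjusted p = 9.6e-05, edgeR). Slc7a5, a transporter of large neutral amino acids, was at 15.1 and 21.3 CPM against 56.4 and 77.02 CPM (−1.89 ± 0.23, adjusted p = 0.00315, edgeR). In alpha cells, 1 of 18 tested rose (0.268% of all genes), Ddit3, a stress-induced transcription factor, at 66.3 and 39.4 CPM in mutants and 21.0 and 17.4 CPM in controls (1.43 ± 0.33, adjusted p = 0.0492, edgeR), and 0 fell.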

How the data were processed

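Single-cell count matrices of 4 islet libraries were used. Per the labels' protocols, cells were encapsulated with inDrops and libraries made by TruDrop. The deposited values are whole-number UMI counts per gene and barcode, not normalized. The submitters' processing notes name Seurat and mm10; the aligner and counting settings are not given in the sources used here.

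Barcodes with at least 500 genes and under 20% mitochondrial UMIs were kept. A hormone's reference was its mean share of UMIs over the 4 libraries. Beta cells had insulin at 0.5 times its reference or more and the other hormones under theirs. Alpha, delta and PP cells had their own hormone at 3 times its reference or more, the other non-insulin hormones under 3 times theirs and insulin under 0.5 times. No doublet caller was run. Counts were summed per library and class and tested with edgeR 4.0.16 (TMM, filterByExpr, quasi-likelihood F test, Benjamini-Hochberg over all genes, two-sided), checked on simulated data. CPM are scaled by TMM within a comparison. Marker levels and levels by Atf4 UMIs in beta cells above 8000 UMIs are CPM of total UMIs, without TMM. Differences between classes used an interaction with library as block. Alternatives used DESeq2 1.42.0 and limma 3.58.1 (voom), other scalings, filters, hormone cuts and left-out libraries.

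Members, lists and the 8000-UMI limit were chosen with earlier results of these data known. Members named with values were those past the threshold in any class or interaction, those with an unadjusted p under 0.05 in beta cells, and the mitochondrial counterparts of these; from the other lists, Atf4 and up to 4 genes past the threshold. Members outside this rule, such as the Dars, Kars and Rars ratios within mutant 2, were chosen after their values were seen. With 2 pools a group, p-values of mutant against control measure the spread between these pools, in part borrowed from other genes. Comparisons between classes take the library as a block, so their p-values do not measure that spread. They rest mostly on the spread shared over all genes (prior degrees of freedom 147 for beta with alpha cells). Replicate counts differed beyond sampling noise (chi-square per degree of freedom 10.5 in mutants, 12.6 in controls). Gene positions are from GENCODE (GRCm38) and promoter windows from RefSeq (GRCm38.p6). 1 promoter sequence is not reported here.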

Additional observations from a re-analysis of the deposited data

Results flagged for a closer look

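Effects of the deletion in beta and in alpha cells differed, by a test of the difference itself, for Aars (−1.08, log2) and Yars (−1.14). For Aars the adjusted p ranged from 0.00476 to 1 over the alternatives with all libraries and from 0.000657 to 0.446 with 1 library left out. For Yars these ranges were 0.0222 to 1 and 0.0432 to 0.5 (edgeR, DESeq2 or limma). The direction was the same throughout.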

How the results depend on the processing

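For mutant against control in beta cells, where 0 members passed, the number past the threshold was 4 with DESeq2, 1 with library totals only, 2 with no filter on low counts, 1 with stricter hormone cuts and 3 in cells with Xist and no Y-linked UMI, and from 0 to 5 with 1 library left out. With the replicate number as a block it was 3 (179 genes called in place of 60). Same-numbered libraries did not deviate together (correlation −0.16 over 4181 genes), and the crossed pairing gave 0 members. Over all genes, calls in beta cells ranged from 42 to 508 with 1 library left out, and were 218 with DESeq2, 174 with library totals and 105 with no filter. In alpha cells the number ran from 0 to 1. For the beta minus alpha difference, 2 in the main analysis, it was 0 with DESeq2, limma-voom, the stricter cell filter and stricter hormone cuts, 1 with library totals and looser hormone cuts, and 0 to 2 with 1 library left out. For beta against alpha cells in controls, 11, it was 6 with DESeq2 and 7 to 11. For beta against delta cells, 8, it was 0 with DESeq2, 1 with limma-voom, 2 with library totals, 4 with looser hormone cuts and 3 to 8. For beta against PP cells, 3, it was 0 with DESeq2, 1 with limma-voom, library totals or the 6% of barcodes with most UMIs left out, and 0 to 3. The cytosolic minus mitochondrial median in beta cells, −0.18, was −0.37 in cells with Xist and no Y-linked UMI, 0.0478 in cells with a Y-linked UMI and no Xist, and −0.252 to −0.0361 with 1 library left out. The cause of these changes was not tested. The stricter cell filter was not run for PP cells, where a library fell under 10 cells. Fits against delta and PP cells, those in beta cells without a control, and those in alpha cells or between beta and alpha cells without any 1 library took 1 common spread for all genes, and leaving out a control left 1 sample in its arm, assumed to vary like the others. Library totals moved the median of all genes by 0.13 in beta cells.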
